A study of Mus musculus with 6 samples.

Results

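The genes described here encode subunits of the CCR4-NOT complex, the main deadenylase of the cytoplasm, together with Btg4, an adaptor that brings the complex to maternal messages. The set holds 10 genes of 49315 in the count table: Cnot1, Cnot2, Cnot3, Cnot6, Cnot6l, Cnot7, Cnot8, Cnot10, Cnot11 and Btg4, matched by symbol. They were chosen by name and by a measured value, the lower count of Cnot3 in the OcKO libraries, with the question whether the rest of the complex moves with it. The OcKO against Control differences of the members are therefore given as descriptions.

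RNA sequencing was done on fully grown germinal vesicle (GV) oocytes, the stage before meiosis resumes. The 3 Control libraries came from Control mice and the 3 OcKO libraries from mice with an oocyte-specific conditional knockout of Rpa1, 1 mouse per library. All mice were 4 to 5 weeks old and PMSG-primed, and each library holds around 20 oocytes without cumulus cells. None of the sources used here gives the Cre driver, the strain or the genotype of the Control mice.

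CCR4-NOT removes adenosines from the 3′ end of messages, which silences them or marks them for decay. A growing oocyte stores its messages, and the poly(A) tails of many are shortened after meiosis resumes, when BTG4 links the complex to translated maternal messages. Mice without BTG4 make eggs that retain maternal messages and do not support development of the embryo. These statements are background and were not measured here.

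The upstream regions of 2 members are shown, those of Cnot3, whose libraries separated by genotype, and of Btg4, which did not, beside that of Cnot9, a subunit outside the set that was picked after its higher values were seen. Each is the 250 bases before the RefSeq start (GRCm38.p6, plus strand in each case), and capitals mark the letters CCAAT (or ATTGG, its reverse complement), the core of the CCAAT box. The windows lie at chr7:3645019-3645268 for Cnot3, chr9:51115751-51116000 for Btg4 and chr1:74505810-74506059 for Cnot9. The Btg4 window lies within the longer gene span of the deposited annotation, outside its exons.
Cnot3: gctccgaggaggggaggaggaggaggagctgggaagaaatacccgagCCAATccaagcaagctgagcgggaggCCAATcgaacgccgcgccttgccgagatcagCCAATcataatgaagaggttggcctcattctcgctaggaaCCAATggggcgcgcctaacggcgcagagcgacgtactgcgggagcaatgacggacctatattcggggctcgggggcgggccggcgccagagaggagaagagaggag
Btg4: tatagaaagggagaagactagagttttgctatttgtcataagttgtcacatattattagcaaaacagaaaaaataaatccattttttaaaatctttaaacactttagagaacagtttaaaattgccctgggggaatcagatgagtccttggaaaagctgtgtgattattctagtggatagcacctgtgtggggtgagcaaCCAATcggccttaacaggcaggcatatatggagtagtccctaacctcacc
Cnot9: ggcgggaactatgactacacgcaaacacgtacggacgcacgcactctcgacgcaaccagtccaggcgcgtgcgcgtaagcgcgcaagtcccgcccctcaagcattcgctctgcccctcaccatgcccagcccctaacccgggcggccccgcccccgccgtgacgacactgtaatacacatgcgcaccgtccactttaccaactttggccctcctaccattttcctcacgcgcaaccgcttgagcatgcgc

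The Cnot3 window held 4 CCAAT matches, that of Btg4 held 1 and that of Cnot9 held 0. Among members not shown, the Cnot6 window held 1, and every window of Cnot2, Cnot6l, Cnot8 and Cnot10 held 0. The window of Cnot11, the member with the most negative log2 fold change, held 0 CCAAT and 3 GC box matches. It lies within the gene span of the deposited annotation, with 147 of its 250 bases in annotated exons. Some windows of Cnot6l and Cnot8 also overlap annotated exons. The 3 windows shown were picked with the changes known, so nothing is read from their order. Of 32851 upstream windows of the same length, 33.9% held at least 1 match and 0.840% held 4 or more. The GC box letters GGGCGG, on either strand, occurred 1 time upstream of Cnot3, 0 times upstream of Btg4 and 3 times upstream of Cnot9, and at least once in 32.7% of all windows. The letters TATAAA were in none of these 3 windows and in 12.4% of all. E-box letters, CANNTG, occurred 2 times upstream of Btg4 and 0 times upstream of Cnot3, against at least 1 match in 66.2% of all windows. GC content was 62.4% for Cnot3 and 38.0% for Btg4. Of the 10 members, 8 had an entry in the promoter table; Cnot1 and Cnot7 had none.

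The libraries held 36280148 to 44575222 counts, and 16060 genes passed the filter on low counts, all 10 members among them. Rpa1 was nearly absent from the OcKO libraries, at 4.16% of its Control level in CPM (counts scaled to library size, here with the trimmed mean of M values, TMM). Genes with at least 1 count numbered 18330 to 19351 in Control and 19915 to 22393 in OcKO, without overlap. The 10 oocyte markers summed to 28816 to 46832 CPM in the Control libraries against 23959 to 29523 in the OcKO libraries. All 10 were tested and edgeR called 0, with 8 on the lower side and a median log2 fold change of -0.22. At an unadjusted p under 0.05, 2 were lower, and 3 did not overlap on the lower side (5.21% and 8.67% of tested genes). The 12 markers of granulosa and cumulus cells summed to 66.6 to 117 CPM and 99.3 to 119 CPM, with 2 to 4 of them at 0 in a Control library and 0 to 1 in an OcKO library. Of these 12, 9 were tested and edgeR called 0, with 6 on the higher side, a median log2 fold change of 0.65 and 0 at an unadjusted p under 0.05. Foxl2, which defines granulosa cells, had at most 2 counts in a library, but Cyp19a1 averaged 28.2 CPM in Control and 22.1 in OcKO, Nr5a2 24.1 and 31.2, and Inha 12.7 and 26.5. The 5 markers of theca and stroma summed to 2.37 to 7.44 CPM in Control and 1.16 to 3.70 in OcKO. Of these 5, 3 were tested and edgeR called 0, with 1 on the higher side, 2 on the lower side and a median log2 fold change of -0.72. The higher one was Cyp17a1, an enzyme of androgen synthesis in theca cells. It had 0 counts in every Control library and 20, 29 and 31 counts in the OcKO libraries. Dcn lay on the lower side, with 0, 282 and 200 counts in Control and 9, 81 and 0 in OcKO. The 4 blood markers summed to 1.76 to 2.65 CPM and 0.731 to 1.92 CPM. Their part in the differences below was not tested. In pooled oocytes a lower level may stand for fewer oocytes with the transcript or for less of it in each, which cannot be told apart. The length of poly(A) tails was not measured, and whether it bears on the counts was not tested.

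CNOT1 is the scaffold on which the other subunits assemble. Cnot1 (chromosome 8, 95719451 to 95807464, minus strand, GRCm38) stood at 414, 440 and 413 CPM in the Control libraries against 459, 317 and 332 in the OcKO libraries. The OcKO libraries lay on either side of the Control range, and the log2 fold change was -0.20 (SE 0.19, n = 3 per group).

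CNOT2 and CNOT3 pair to form the NOT module at the end of the scaffold, which docks proteins that recruit the complex or sense slow translation. Cnot2 (chromosome 10, 116485161 to 116581511, minus strand) stood at 145, 141 and 169 CPM in the Control libraries against 161, 165 and 127 in the OcKO libraries, a log2 fold change of -0.01 (SE 0.19). Its partner differed. Cnot3 (chromosome 7, 3645268 to 3661109, plus strand) stood at 398, 346 and 335 CPM in the Control libraries against 151, 169 and 171 in the OcKO libraries. Every OcKO library lay below every Control library, the OcKO mean was 45.6% of that of Control, and the spread was small in both groups (CV of 9.31% and 6.75%). The log2 fold change was -1.13 (SE 0.16), between -1.17 and -1.06 when any 1 library was left out and -0.96 with library size alone. Per kb of exon, the Cnot3 to Cnot2 ratio within a library was 1.03 to 1.43 in Control and 0.490 to 0.702 in OcKO. This ratio does not depend on the scaling between libraries, but Cnot3 was chosen for its lower count. The gap in the ratio follows from that choice and adds nothing to the difference of Cnot3 itself.

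Part of the Cnot3 exons, 433 bases or 6.07%, overlaps exons of Leng1 on the opposite strand, and the strand setting of the counting is not given. Leng1 stood at 11.62, 4.45 and 8.26 CPM in the Control libraries and 18.1, 13.4 and 11.60 in the OcKO libraries, with OcKO replicate 3 just below Control replicate 1. Of the 50-base windows in annotated Cnot3 transcripts, 13.5% also occur in another gene, most of them in Gm9207. That gene had 146 to 213 counts in Control and 91 to 125 in OcKO, against at least 6621 for Cnot3 in every library. A microRNA gene inside Cnot3, Mir3572, had 0 counts in all 6 libraries. Exons on the opposite strand also overlap Cnot1 (4930513N10Rik, 35 to 94 counts), Cnot2 (5330438D12Rik, 62 to 181 counts) and Cnot7 (Zdhhc2, 0 to 8 counts). Rpa1 overlaps Gm47300, which had at most 1 count.

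CNOT10 and CNOT11 form a module at the other end of the scaffold. Cnot11 (chromosome 1, 39534992 to 39546889, plus strand) stood at 175, 117 and 45.0 CPM in the Control libraries against 24.4, 29.0 and 48.0 in the OcKO libraries. Its log2 fold change, -1.73 (SE 0.50), was the most negative of the set, but Control replicate 3 lay inside the OcKO range. Leaving out that library moved it to -2.09, and leaving out Control replicate 1 to -1.27. Cnot10 (chromosome 9, 114585878 to 114640184, minus strand) stood at 53.3, 67.7 and 68.2 CPM in the Control libraries against 36.8, 78.4 and 82.1 in the OcKO libraries, a log2 fold change of 0.06 (SE 0.33). The per-kb ratio of Cnot11 to Cnot10 ran from 1.25 to 6.20 in Control and from 0.697 to 1.25 in OcKO, with Control replicate 3 (1.245) inside the OcKO range (highest 1.253).

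**Figure D1:**
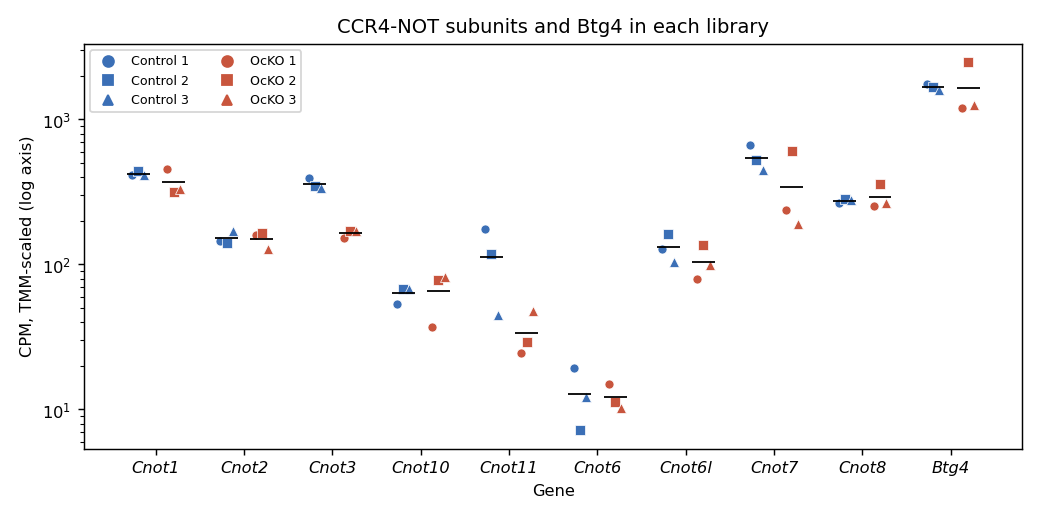
Level of each gene in each of the 6 libraries, in TMM-scaled CPM on a log axis; blue is Control, red is OcKO, marker shape gives the replicate and black bars the group means (n = 3). Only Cnot3 has all 3 OcKO libraries (151 to 171 CPM) below all 3 Control libraries (335 to 398 CPM).

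CNOT7 and CNOT8 are the paralogous CAF1-type nucleases, and BTG4 binds the complex through them. Cnot7 (chromosome 8, 40492540 to 40515847, minus strand) stood at 663, 524 and 451 CPM in the Control libraries against 237, 603 and 190 in the OcKO libraries. OcKO replicates 1 and 3 lay below all Control libraries and OcKO replicate 2 within their range, 2.82 times the mean of the other OcKO libraries. The log2 fold change was -0.67 (SE 0.43), and -1.32 without OcKO replicate 2. Cnot8 (chromosome 11, 58104153 to 58118594, plus strand) stood at 264, 281 and 279 CPM in the Control libraries against 251, 357 and 266 in the OcKO libraries, a log2 fold change of 0.09 (SE 0.19). OcKO replicate 2 was again the highest, at 1.38 times the mean of the others. Of the 50-base windows in Cnot8 transcripts, 7.82% also occur in Gm18860, which had 75 to 182 counts. The per-kb ratio of Cnot7 to Cnot8 was 0.732 to 1.14 in Control and 0.324 to 0.766 in OcKO, and these ranges overlap.

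CNOT6 and CNOT6L are the paralogous CCR4-type nucleases, of which CNOT6L is known as the form of the oocyte. Cnot6l (chromosome 5, 96070333 to 96164171, minus strand) stood at 128, 162 and 104 CPM in the Control libraries against 79.8, 135 and 99.1 in the OcKO libraries (a log2 difference of -0.33, SE 0.26). Cnot6 (chromosome 11, 49671503 to 49712723, minus strand) stood at 19.2, 7.17 and 12.2 CPM in the Control libraries against 15.0, 11.3 and 10.2 in the OcKO libraries (a log2 difference of -0.08, SE 0.48). Per kb of exon, Cnot6l exceeded Cnot6 in every library, with a mean ratio of 8.09 ± 5.60 in Control and 5.76 ± 2.16 in OcKO (SD, n = 3). Cnot6 and Cnot8 share chromosome 11 with the deleted gene, 25.6 and 17.2 Mb from it.

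BTG4 belongs to the BTG/TOB family of antiproliferative proteins. Btg4 (chromosome 9, 51060901 to 51119875, plus strand) stood at 1769, 1682 and 1587 CPM in the Control libraries against 1209, 2476 and 1264 in the OcKO libraries. OcKO replicates 1 and 3 lay below the Control range and OcKO replicate 2 above it, at 2.00 times the mean of the other OcKO libraries. The group means, 1679 ± 91.4 and 1650 ± 716 CPM (SD, n = 3), differed by less than this spread, with a log2 fold change of -0.03 (SE 0.29) that was -0.40 without OcKO replicate 2 and 0.13 with library size alone. Across 10038 genes of at least 5 CPM, the median ratio of OcKO replicate 2 to the other OcKO libraries was 0.977. Of these genes 18.4% exceeded 1.5, against 12.5% to 16.2% for the other libraries. A ratio of 2 was exceeded by 6.74%, against 5.21% to 6.74% for the other libraries. Btg4 per Cnot7, per kb, was 6.08 to 8.02 in Control and 9.35 to 15.1 in OcKO, without overlap.

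**Figure D2:**
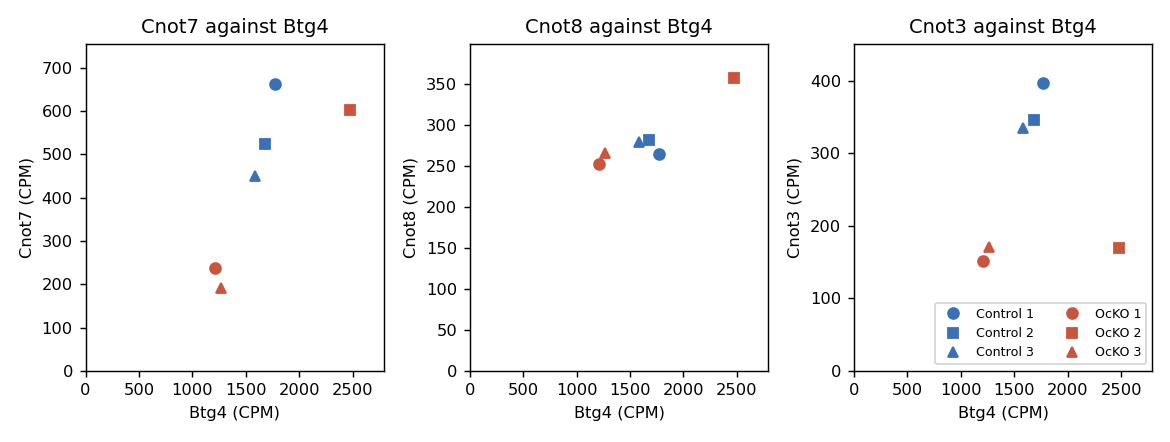
Btg4 level (x axis, CPM) against Cnot7, Cnot8 and Cnot3 (y axes, CPM) in the 6 libraries, blue Control and red OcKO, marker shape giving the replicate. OcKO replicate 2, at 2476 CPM of Btg4, has the highest Cnot8 (357 CPM) and the highest OcKO Cnot7 (603 CPM), while its Cnot3 (169 CPM) stays with the other OcKO libraries.

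Of the 10 members, edgeR called 0 at an adjusted p under 0.05, where 0.143% of all tested genes were called. At an unadjusted p under 0.05, 2 members, Cnot3 and Cnot11, were lower and 0 higher, against 5.21% and 5.93% of all tested genes. Libraries did not overlap for 1 member, Cnot3, on the lower side and 0 on the higher side, against 8.67% and 10.7% of tested genes. A log2 fold change of -1 or lower belonged to 2 members and to 8.78% of tested genes. DESeq2 called Cnot3 and Cnot11 lower (1.71% of its tested genes were called lower), edgeR on genes of at least 5 CPM called Cnot3 (0.0797%), and limma voom called 0 members. Since the contrast was known when the members were picked, nothing is read from these counts.

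Levels of the members did not all lie to one side. The log2 fold changes ran from -1.73 to 0.09, and 7 of the 10 lay between -0.44 and 0.53, the middle 50% of all tested genes. Signs were negative for 8 members against 49.2% of tested genes, and the count was 5 with library size alone, where Cnot2, Cnot6 and Btg4 turned positive. The median of the members was -0.14, against 0.01 over all tested genes. Abundant genes as a class also lay lower: of 2297 genes averaging at least 100 CPM, 64.7% had a negative log2 fold change, with a median of -0.14. At an unadjusted p under 0.05 from edgeR, 14.6% of these 2297 genes were lower and 3.57% higher. Libraries did not overlap for 448 of them on the lower side and 125 on the higher side. Of the members, 7 were that abundant.

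**Figure D3:**
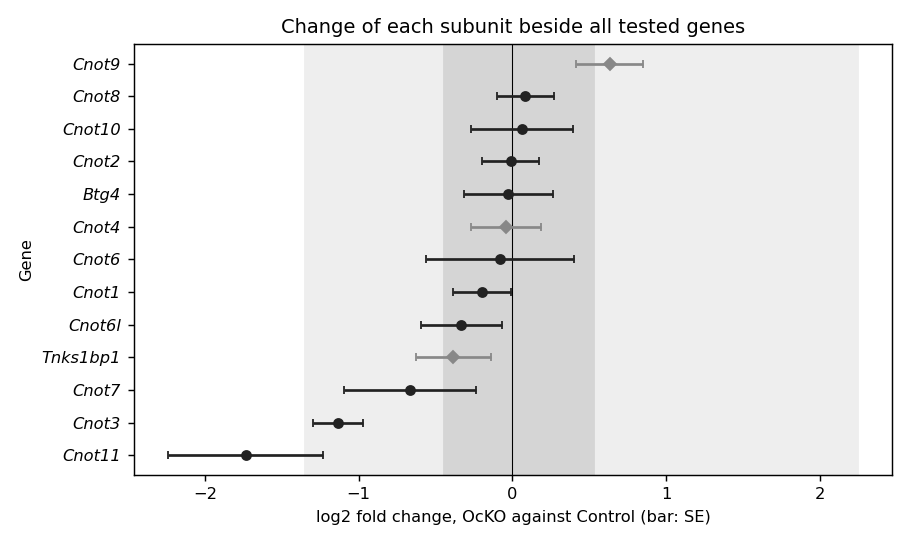
Log2 fold change of OcKO against Control with its SE for the 10 members (black circles) and 3 additional subunits (grey diamonds); the dark band spans the middle 50% of all 16060 tested genes and the light band the 5th to 95th percentile. Cnot3 (-1.13) and Cnot11 (-1.73) lie left of the dark band with Cnot7 (-0.67), and Cnot9 (0.63) lies just right of it.

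Compared per kb of summed exon length, which counts every annotated exon and so understates genes with many isoforms, Btg4 led in Control at 657 ± 35.8 CPM per kb (SD, n = 3). Cnot8 (104 ± 3.49) and Cnot7 (93.8 ± 18.5) came next and overlapped each other. Cnot3 (50.4 ± 4.69) was above Cnot2 (40.9 ± 4.02) without overlap. Cnot11 (32.1 ± 18.6) overlapped Cnot3, Cnot2 and Cnot1 (24.6 ± 0.883), and Cnot6l (12.8 ± 2.83) overlapped Cnot10 (9.53 ± 1.28). Cnot6 was last at 1.95 ± 0.915 CPM per kb. In OcKO the order of Cnot2 and Cnot3 was the other way round: Cnot2 (40.6 ± 5.61) lay above Cnot3 (23.0 ± 1.55) in all libraries, and Cnot3 overlapped Cnot1 (21.5 ± 4.55). Cnot11, at 9.64 ± 3.56, had moved from the 6th to the 9th place and overlapped Cnot10.

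The composition of the complex's transcripts was followed as each gene's share of the summed counts per kb of the 9 Cnot members. Cnot3 made up 13.7%, 13.1% and 14.0% of the sum in Control and 8.49%, 6.59% and 9.67% in OcKO, without overlap. Cnot3 was chosen for its lower count, and its lower share follows from that choice. Cnot8 was the other gene whose shares did not overlap, at 24.7%, 28.9% and 31.6% in Control and 38.2%, 37.5% and 40.6% in OcKO, while its own level overlapped between the groups. Cnot7 took 23.1% to 28.0% in Control and 13.2% to 28.7% in OcKO. Shares of the 9 genes add up to the whole, so a lower share of one raises the others. The sum itself was 370 ± 35.7 CPM per kb in Control and 286 ± 64.3 in OcKO (SD, n = 3), and OcKO replicate 2, at 360, lay within the Control range of 335 to 406.

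**Figure D4:**
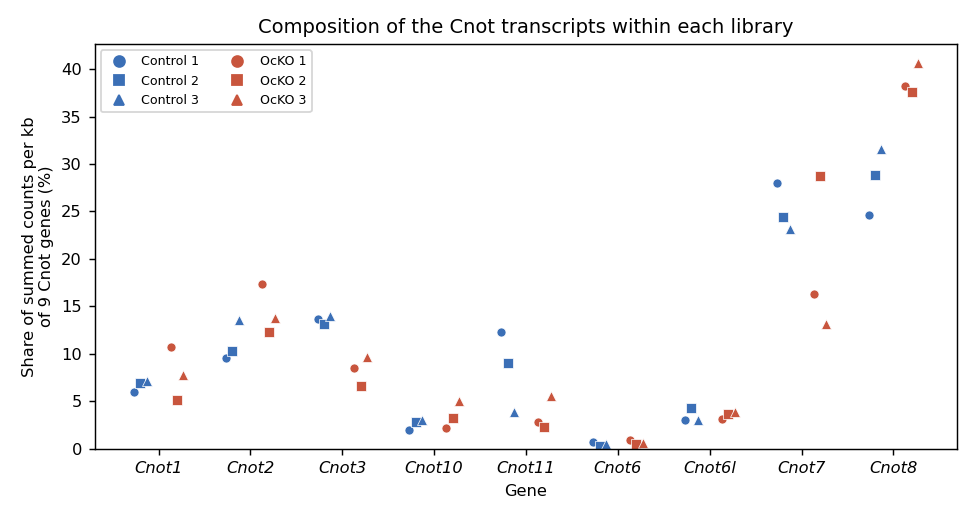
Share of each gene in the summed counts per kb of the 9 Cnot members, in percent, for each library (blue Control, red OcKO, marker shape the replicate). Cnot3, chosen for its lower count, is lower in the 3 OcKO libraries (6.59% to 9.67% against 13.1% to 14.0%). Cnot8 is higher in them (37.5% to 40.6% against 24.7% to 31.6%).

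Members were also compared with each other across libraries. The 45 pairs had a median Pearson's r of 0.16 over the 6 libraries (log2 CPM, prior count 2), and of 0.20 once each group's mean was taken off. The r values are descriptions over 6 libraries that share depth and group. Once group means were taken off, r was 0.96 for Btg4 with Cnot7, 0.95 for Btg4 with Cnot8 and 0.84 for Cnot7 with Cnot8. Among the Control libraries, replicate 1 had the highest Btg4 and Cnot7 (1769 and 663 CPM) but the lowest Cnot8 (264 CPM). How far these r values rest on OcKO replicate 2 was not tested. For Btg4, Cnot7 and Cnot8, OcKO replicate 2 was the highest OcKO library, as it was for Cnot2 and Cnot6l. Cnot6l had an r within groups of 0.75 with Btg4, 0.75 with Cnot8 and 0.67 with Cnot7. Cnot1 ran against Cnot10 (r of -0.90 within groups) and against Cnot8 (-0.67). Cnot3 was closest to Cnot11 (0.85 over 6 libraries, 0.80 within groups).

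Among 9288 other named genes of at least 5 CPM, those most like Cnot3 over the 6 libraries were St3gal5, Epn2, Nup62, Tmcc2 and Fndc3b, with r from 0.98 to 0.99. Such likeness is common where a gene separates the groups, and 213 genes had an r over 0.9. Fndc3b, for example, stood at 62.0, 59.6 and 64.6 CPM in the Control libraries against 29.1, 28.4 and 31.9 in the OcKO libraries. Those most like Btg4 were Atf2, Ubxn7, Zdhhc20, Mospd1 and Il17f (r from 0.98 to 0.99), of 117 genes over 0.9. Each was highest in OcKO replicate 2. Atf2, which encodes a transcription factor of the bZIP family, stood at 128, 125 and 116 CPM in the Control libraries against 82.4, 183 and 81.9 in the OcKO libraries.

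Cnot4, Cnot9 and Tnks1bp1 are further subunits or partners outside the set, and 0 of the 3 were called by edgeR or DESeq2, with 1 higher at an unadjusted p under 0.05. Cnot9, whose protein binds RNA-binding proteins and GW182 proteins, stood at 110, 94.3 and 131 CPM in the Control libraries against 157, 149 and 214 in the OcKO libraries. Its OcKO libraries all lay above the Control libraries, and the log2 fold change was 0.63 (SE 0.22) at an adjusted p of 0.329 from edgeR. Usp37, whose exons overlap those of Cnot9 on the opposite strand by 134 bases, stood at 147, 143 and 154 CPM in the Control libraries and 183, 203 and 152 in the OcKO libraries, with OcKO replicate 3 inside the Control range. Cnot4, a ubiquitin ligase that associates with the complex, had a log2 fold change of -0.04 (SE 0.23), and Tnks1bp1 one of -0.38 (SE 0.24). Per kb, Cnot9 to Cnot3 was 0.508 to 0.728 in Control and 1.63 to 2.32 in OcKO. Cnot3 was chosen for its lower count and Cnot9 for the smallest p of its list. The gap in their ratio follows from that choice and adds nothing to the separate differences.

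Among proteins that recruit the complex to messages, edgeR called 1 gene. Of 25 listed, 23 were tested (Btg3 and Nanos3 had too few counts), and the call was on the higher side, with 0 called lower, 1 higher and 2 lower at an unadjusted p under 0.05, and a median log2 fold change of -0.22. DESeq2 called 1 higher and 2 lower in this list, where it called 2.99% of all its tested genes higher and 1.71% lower. Btg2, a relative of Btg4 and a known target of p53, rose from 21.1, 43.9 and 21.5 CPM in Control to 199, 194 and 281 CPM in OcKO (a log2 difference of 2.96, SE 0.36, with 0.0450 as edgeR's adjusted p). It lost its call in each of the 6 fits without 1 library. Per kb in OcKO, Btg2 stood at 82.0 ± 17.9 CPM per kb and Btg4 at 645 ± 280 (SD, n = 3). Cpeb1, which holds stored messages in a dormant state through their cytoplasmic polyadenylation elements, stood at 1913, 1885 and 1474 CPM in the Control libraries against 1243, 815 and 1080 in the OcKO libraries (a log2 difference of -0.75, SE 0.21, with 0.215 as edgeR's adjusted p).

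The other deadenylases numbered 9, all tested, with 0 called by edgeR and a median log2 fold change of -0.07. At an unadjusted p under 0.05, 1 was higher and 1 lower, and DESeq2 called 1 higher. Pde12, which trims poly(A) tails in mitochondria, stood at 11.3, 17.8 and 18.0 CPM in the Control libraries against 40.2, 39.9 and 40.8 in the OcKO libraries (a log2 difference of 1.36, SE 0.30, with 0.127 as edgeR's adjusted p). Pan3, the adaptor subunit of the PAN2-PAN3 deadenylase, stood at 59.7, 67.5 and 62.0 CPM in the Control libraries against 28.5, 48.9 and 27.1 in the OcKO libraries (a log2 difference of -0.86, SE 0.29, with 0.312 as edgeR's adjusted p). As for Cnot7, OcKO replicate 2 was the highest OcKO library for Pan3.

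Of 12 genes that bind or add poly(A), edgeR called 0, and at an unadjusted p under 0.05 found 1 higher and 2 lower, with a median log2 fold change of -0.46. DESeq2 called 1 higher. Pabpc1, the poly(A)-binding protein of somatic cells, stood at 3.70, 16.3 and 14.0 CPM in the Control libraries against 40.8, 24.2 and 73.8 in the OcKO libraries (a log2 difference of 2.03, SE 0.64, with 0.274 as edgeR's adjusted p). Pabpc1l, the embryonic form that oocytes use, stood at 449, 542 and 511 CPM in the Control libraries against 419, 255 and 321 in the OcKO libraries (a log2 difference of -0.59, SE 0.22, with 0.351 as edgeR's adjusted p). Libraries did not overlap for Pabpc1 on the higher side and Pabpc1l on the lower side, as for 10.7% and 8.67% of tested genes. Both were named for the smallest p of the list, so nothing is read from their opposite directions.

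Decapping and decay from the 5′ end follow deadenylation. Of 20 genes, edgeR called 0, and at an unadjusted p under 0.05 found 1 higher and 2 lower, with a median log2 fold change of -0.29. DESeq2 called 1 of the 20 higher and 2 lower, beside the same shares of all genes. Lsm14a, a protein of oocyte ribonucleoprotein stores, stood at 309, 187 and 141 CPM in the Control libraries against 76.0, 99.2 and 77.9 in the OcKO libraries (a log2 difference of -1.33, SE 0.31, with 0.141 as edgeR's adjusted p). Lsm1, of the ring that binds deadenylated ends, stood at 21.6, 26.6 and 42.5 CPM in the Control libraries against 67.4, 58.4 and 67.5 in the OcKO libraries (a log2 difference of 1.09, SE 0.30, with 0.213 as edgeR's adjusted p). Dcp1a, a decapping cofactor stored as a dormant message in oocytes, was named after its values were seen. It stood at 1555 ± 130 CPM in the Control libraries against 944 ± 241 in the OcKO libraries (SD, n = 3; a log2 difference of -0.72, SE 0.21, with 0.241 as edgeR's adjusted p), without overlap.

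The RNA exosome, which degrades messages from the 3′ end after deadenylation, was listed with 15 genes, of which 14 were tested. edgeR called 0, found 1 higher and 0 lower at an unadjusted p under 0.05, and gave a median of 0.21, while DESeq2 called 1 higher. Wdr61, of the SKI complex, stood at 0.772, 2.43 and 11.4 CPM in the Control libraries against 50.3, 28.0 and 34.3 in the OcKO libraries (a log2 difference of 2.94, SE 0.91, with 0.269 as edgeR's adjusted p). Exosc4, a core subunit, stood at 44.7 ± 5.38 and 74.7 ± 34.0 CPM (SD, n = 3; adjusted p = 0.486).

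**Figure D5:**
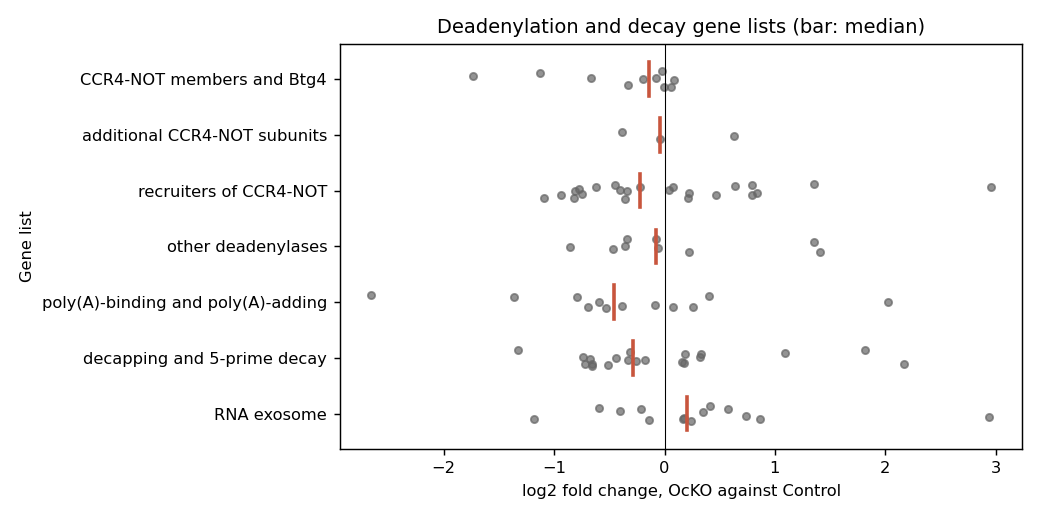
Log2 fold change of OcKO against Control for each tested gene of the members and of 6 lists of deadenylation and decay genes; red bars are medians and vertical jitter has no meaning. The medians run from -0.46 for genes that bind or add poly(A) to 0.21 for the RNA exosome, and in every list tested genes lie on both sides of 0.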

How the data were processed

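Raw read counts for 49315 genes were deposited by the authors, in 1 joint table and in 1 file for each library; the joint table and the files differed in 0 values. Trimmomatic 0.36, STAR 2.5.2b, featureCounts (Subread 1.5.2) and the build GRCm38 are named in the submitters' processing notes, without their order. No source used here states which annotation release or strand option was used, or how reads matching several places were handled. The NEBNext Single Cell/Low Input kit was used, per the labels' protocols.

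Counts were fitted with edgeR 4.0.16 in R 4.3.3 (glmQLFit, glmQLFTest, TMM scaling, filterByExpr), which compared OcKO with Control over 16060 genes, with Benjamini-Hochberg adjustment over all of them. SEs were obtained by dividing the size of each log2 fold change by the root of its F statistic. DESeq2 1.42.0 and limma 3.58.1 (voom) were alternatives, beside other scalings, other filters, a replicate block and leaving out each library. CPM per kb uses the deposited exon lengths. GENCODE M21 held 99.3% of the deposited identifiers, and its transcripts gave the 50-base windows. Upstream sequences are from RefSeq (GRCm38.p6). Where 1 library is 1 mouse, p-values measure the spread between mice, oocyte pools and library preparation. No pair of libraries was a duplicate (lowest chi-square per degree of freedom 121).

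Members and lists were chosen with earlier results of these data known. The genes named are the members, Rpa1, genes whose exons overlap a member's, the called genes and the 2 of smallest p in each list (1 for the additional subunits), and the 5 genes most like Cnot3 and Btg4. Outside this rule, and chosen after their values were seen, are Dcp1a, Cnot4, Tnks1bp1, the near-identical copies Gm9207 and Gm18860, and the cell type markers Foxl2, Cyp19a1, Nr5a2, Inha and Cyp17a1. The scripts were tested on simulated data.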

Additional observations from a re-analysis of the deposited data

How the results depend on the processing

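The log2 fold changes of Cnot1, Cnot3, Cnot6l, Cnot7 and Cnot11 were negative under all 13 alternatives, while Cnot2, Cnot6, Cnot8, Cnot10 and Btg4, all near 0, took either sign. Members called lower numbered 2 by DESeq2 and 1 on genes of at least 5 CPM, against 0 otherwise. The median of the members was 0.025 with library size alone, which raised the median of all genes to 0.18, and lay between -0.23 and -0.13 without 1 library. Genes called higher and lower numbered 477 and 272 by DESeq2, 62 and 8 on genes of at least 5 CPM, 0 and 1 by limma voom, and 0 to 4 and 0 to 2 without 1 library. The recruiters' 1 call, Btg2, was 0 by limma voom, with a replicate block and without any 1 library. DESeq2 called 2 lower among the recruiters and 2 lower among the decapping genes, and 1 higher in each of the other deadenylases, poly(A), decapping and exosome lists. Cnot3's share was 5.38 percentage points lower in OcKO (-5.38), and -6.44 from counts not divided by length. With the replicate block, edgeR called 0 higher and 0 lower genes, and Cnot3's log2 fold change was -1.13. No label pairs the mice. Deviations from the group means had r of -0.045 to -0.037 between same-numbered libraries. Values this near 0 cannot show whether the numbers pair the mice. The causes of these differences between settings were not tested. With 3 libraries per group, SEs of 0.16 to 0.50 bound what could be seen for single members.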
